A study of Mus musculus with 39 samples.

Results

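The skeletal muscle contraction genes are 41 genes of the contractile apparatus, calcium handling and energy supply of the muscle fibre, and they are described here over 39 mouse arrays. The genes came from a fixed list of symbols. Each gene was represented by its probe set with the highest mean over all arrays, and a probe set marked as cross-hybridising was used only where a gene had no other. All 41 were on the array, out of 18194 genes with a named probe set. By role, 14 belong to fast fibres, 5 to slow fibres, 10 to the sarcomere of both fibre types, 4 to calcium handling and 8 to energy supply.

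In a muscle fibre, thick filaments of myosin pull on thin filaments of actin once calcium released from the sarcoplasmic reticulum binds troponin C and moves tropomyosin off the actin. Fast and slow fibres build the same parts from different genes, so that troponin C, I and T, myosin heavy chain and myosin-binding protein C each have a fast and a slow form. In the mouse the mammary glands lie under the skin in pads of fat, over the muscles of the body wall.

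The arrays fell into 6 groups by genotype and tissue, and the genotype labels combine the elements SB, Tg, K5Cre and Bcat. Sleeping Beauty, in the title of the series, is a transposon that mutates genes where it inserts, and K5Cre in its usual sense is a Cre recombinase driven by the promoter of keratin 5, a basal epithelial gene. Breast tissue gave 19 arrays of 15 quadruple animals (SB/Tg/K5Cre/Bcat), 8 arrays of 8 triple K5Cre animals (SB/Tg/K5Cre) and 3 arrays of 2 triple Bcat animals (SB/Tg/Bcat). The labels do not call these breast samples tumours. Masses in the breast of 2 Bcat +/- animals gave 2 arrays, and ventral tumours of 1 Bcat +/- animal gave 3 arrays. The titles of these 5 arrays carry C57 in the animal's name, as no other title does, and the labels do not say what it stands for. Normal mammary gland gave 4 arrays of 4 animals: gland 1 from triple Bcat animal Tbc-139, gland 2 from quadruple animal Q440, and gland 3 and gland 4 from triple K5Cre animals T627 and T635, which also gave breast arrays. No gland came from an animal without SB and Tg, and the labels give no age, sex or litter. Quadruple animal Q190 gave 2 arrays (quadruple 1 and 12), Q648 gave 3 (quadruple 8, 9 and 10) and Q2154 gave 2 (quadruple 18 and 19), while triple Bcat 2 and 3 came from animal Tbc-266. The numbers only order the arrays within a group.

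Values are log2 of normalized probe set signal, so a difference of 1 is a doubling. Array medians over all probe sets lay between 5.1 and 5.27. A low value could not be separated from background, and values of different probe sets share no scale, so levels were compared between arrays and never between genes. In these bulk samples, fewer muscle fibres and less RNA of these genes per fibre cannot be told apart. Xist, the RNA of the inactive X chromosome, chosen after its values were seen, read between 5.64 and 7.0 in gland 3, quadruple 5 and triple K5Cre 2 and at least 10.77 in every other array.

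The 250 bases before the start of Acta1 (skeletal alpha-actin), Myh4 (the fast IIb myosin heavy chain), Ckm (muscle creatine kinase) and Tnnc1 (slow troponin C) are shown because the first 3 moved together over the arrays while Tnnc1 stood apart from them. They are RefSeq sequences of GRCm38.p6, from chr8:123894776-123895025 (minus strand), chr11:67237562-67237811 (plus strand), chr7:19410844-19411093 (plus strand) and chr14:31208062-31208311 (plus strand), each read 5′ to 3′ along its gene. Capitals mark CAGCTG, an E-box form bound by the MyoD family, the MEF2 site, the CArG box bound by serum response factor, and TATAAA, each searched on both strands.
Acta1: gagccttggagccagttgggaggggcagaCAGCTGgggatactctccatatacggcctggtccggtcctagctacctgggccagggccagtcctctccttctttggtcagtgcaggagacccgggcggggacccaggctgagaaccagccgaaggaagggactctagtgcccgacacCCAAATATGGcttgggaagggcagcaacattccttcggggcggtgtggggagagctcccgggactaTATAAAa
Myh4: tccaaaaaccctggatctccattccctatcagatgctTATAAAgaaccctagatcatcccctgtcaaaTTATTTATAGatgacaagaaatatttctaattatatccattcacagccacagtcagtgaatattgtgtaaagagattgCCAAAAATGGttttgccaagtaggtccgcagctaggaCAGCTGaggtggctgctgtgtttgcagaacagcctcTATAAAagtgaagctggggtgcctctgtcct
Ckm: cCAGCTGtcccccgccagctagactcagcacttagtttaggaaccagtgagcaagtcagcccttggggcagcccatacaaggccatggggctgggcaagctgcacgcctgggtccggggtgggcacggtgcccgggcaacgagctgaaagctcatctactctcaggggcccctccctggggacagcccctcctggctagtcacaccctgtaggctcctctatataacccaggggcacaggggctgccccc
Tnnc1: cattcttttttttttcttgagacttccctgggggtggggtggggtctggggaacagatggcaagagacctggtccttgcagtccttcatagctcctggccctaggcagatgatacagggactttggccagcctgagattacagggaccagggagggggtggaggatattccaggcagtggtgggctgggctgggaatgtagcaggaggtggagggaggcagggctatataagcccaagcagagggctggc
Acta1 held CAGCTG from base -221 to -216, a CArG box from -73 to -64 and TATAAA from -7 to -2, counted back from the start of the gene in RefSeq. Myh4 held CAGCTG from -67 to -62, a CArG box from -104 to -95, a MEF2 site from -182 to -173 and TATAAA at 3 places, of which the one from -179 to -174 lies inside the MEF2 site. Ckm held CAGCTG from -249 to -244, and none of the 4 motifs was in the Tnnc1 window. Windows were matched for 30 of the 41 genes. CAGCTG was in 16 of these 30 (53.3%), in 5 of 10 fast fibre genes and 2 of 5 slow fibre genes, against 14.7% of 27025 genes with a window. The 16 included Tnni1 and Tpm2, which followed the other genes least over the arrays (correlation -0.23 and 0.20). The MEF2 site was in 5 of 30 (16.7%, against 3.42% of all windows), the CArG box in 3 of 30 (against 1.62%) and TATAAA in 5 (16.7%, against 14.3%). These are matches of letters in the window, with no measurement of binding.

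The genes were high in all 4 normal glands and low in most breast arrays, but 5 breast arrays stood with the glands or just under them. The mean of the 41 genes was 8.87, 9.63, 10.20 and 9.56 in glands 1 to 4. In quadruple it ran from 4.32 through a median of 4.66 to 9.25, and in triple K5Cre from 4.34 through 4.48 to 9.40. The high arrays were quadruple 5 (9.25), quadruple 9 (8.84), quadruple 1 and 12 (8.34 and 8.33) and triple K5Cre 7 (9.40). Quadruple 7 (5.99), quadruple 13 (5.72) and quadruple 8 (5.27) lay between these and the rest. The triple Bcat arrays stood at 4.71, 4.58 and 4.45 and the masses at 4.83 and 4.65. Of the ventral tumours of 1 animal, the first stood at 4.72 and the others at 7.14 and 6.69.

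**Figure D1:**
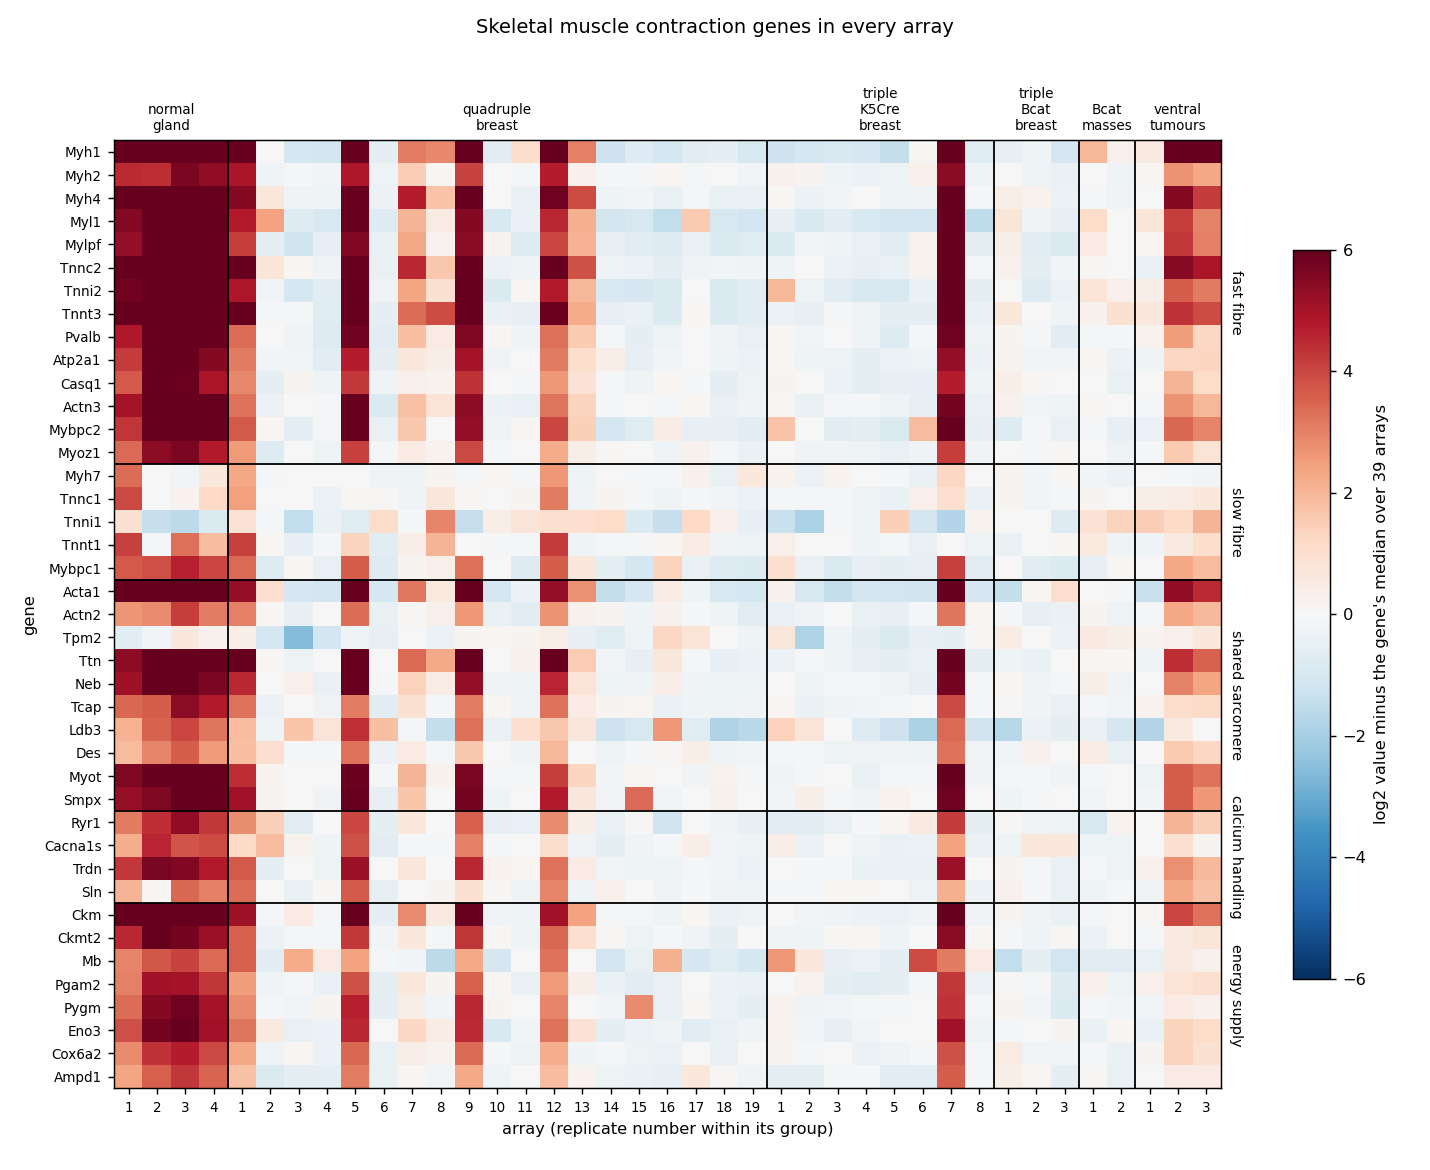
Each row is 1 of the 41 genes, ordered by role, and each column 1 of the 39 arrays, ordered by group and replicate number. Colour is the log2 value minus the gene's median over the 39 arrays, and differences beyond 6 have the end colour. Most rows are red in the 4 glands, in quadruple 1, 5, 9 and 12 and in triple K5Cre 7. The rows of Tnni1 and Tpm2 do not follow these columns, and those of Myh7, Tnnc1 and Tnnt1 follow only some of them.

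Arrays of 1 animal could differ widely. Among the 3 arrays of animal Q648, the mean of the 41 genes was 5.27, 8.84 and 4.55. Both arrays of Q190 were high (8.34 and 8.33), and both of Q2154 were low (4.36 and 4.32). Counting genes instead of averaging them, 40 of the 41 genes in triple K5Cre 7 reached at least the lowest gland value, as did 35 in quadruple 5 and 32 in quadruple 9. In quadruple 1 and 12 the count was 10 and 11, and most of their genes lay under the lowest gland. No other breast, mass or tumour array had more than 6 such genes.

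Most genes varied together over the arrays, and are called the block below. Over the 39 arrays, 32 of the 41 genes had a correlation with the mean of the other 40 of at least 0.9 (from 0.92 to 0.99), and over the 35 arrays that are not normal gland 31 did. The genes below were Tnni1 (-0.23), Tpm2 (0.20), Myh7 (0.47), Tnnc1 (0.56), Tnnt1 (0.64), Mb (0.74), Ldb3 (0.79), Sln (0.84) and Cacna1s (0.89). Of the 5 slow fibre genes only Mybpc1 was in the block (0.97). Some of these arrays share an animal, and the correlations are a description.

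Against normal gland, nearly all genes were lower in quadruple and in triple K5Cre. A single limma fit of all genes and arrays was used, with the animal as a block, and a gene passed at an adjusted p (Benjamini-Hochberg, over 18194 genes) under 0.05. Differences are the group minus gland on the log2 scale, so a gene that fell has a negative value. In quadruple, 37 of the 41 genes fell and none rose, with a median log2 difference of -4.44, where 9.66% of all genes fell and their median difference was 0.008. In triple K5Cre, 37 fell and none rose (median -4.72), where 9.79% of all genes fell. The genes that did not pass were Myh7, Tnnc1, Tnni1 and Tpm2 in both. In triple Bcat, 35 fell (median -5.28, against 5.38% of all genes), with Tnnt1 and Sln also not past the test. Without triple Bcat 1, which left 2 arrays of 1 animal, 14 fell. All 5 comparisons with gland share the same 4 gland arrays.

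In the masses, 31 of the 41 genes fell (median -5.37, against 4.68% of all genes). The other 10 were Myh1, Myh7, Myl1, Tnnc1, Tnni1, Tnnt1, Tpm2, Ttn, Ldb3 and Sln. Without gland 3 the count was 17, and without either mass none passed. In the ventral tumours 6 fell (median -3.91, against 3.22% of all genes): Atp2a1, Myoz1, Cacna1s, Ckmt2, Pygm and Ampd1. At an unadjusted p under 0.05 the count there was 31. The count of 6 moved between 0 and 10 as single arrays were left out, to 0 without gland 2, gland 3 or ventral tumour 1, to 1 without gland 4 or ventral tumour 3 and to 10 without gland 1. With the arrays of each animal averaged, which left 1 value for these tumours, none passed, and without genes of low mean 2 did. A fit of the 2 groups alone gave 32, with array weights 31, and without the animal block 15. No gene rose in any of these comparisons.

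**Figure D2:**
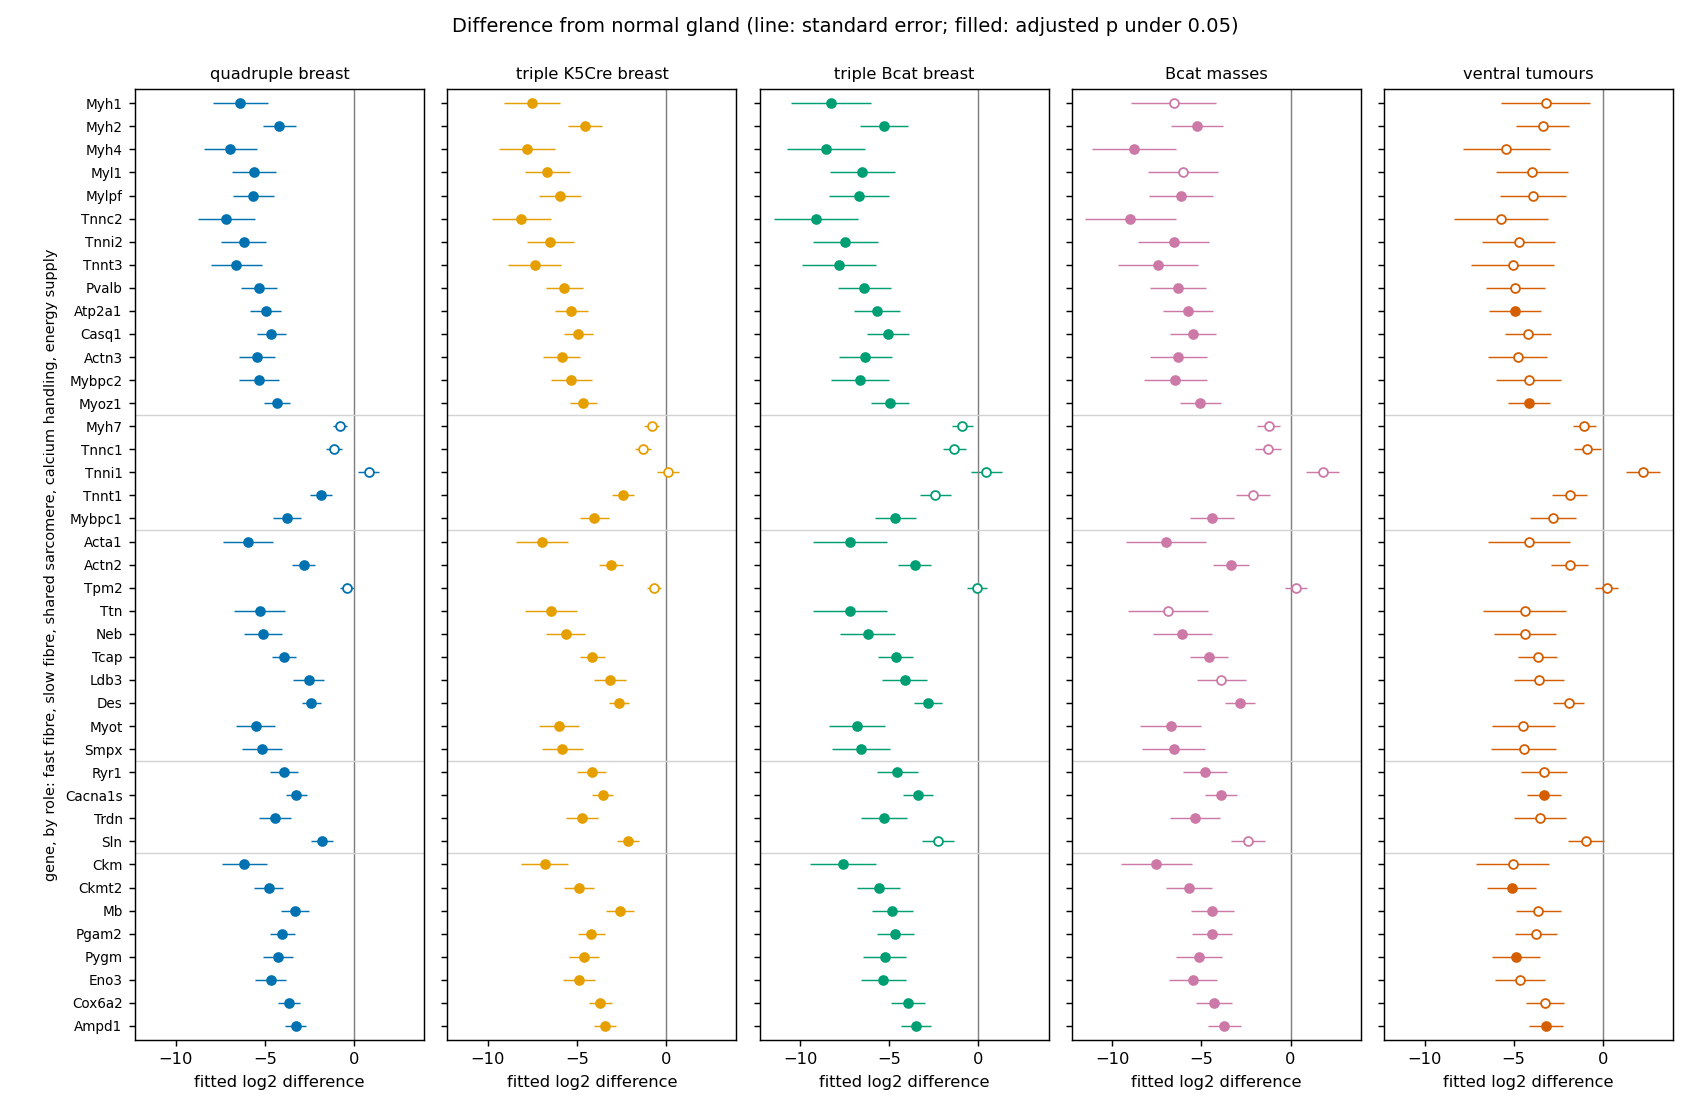
Fitted log2 differences from normal gland (x axis) of the 41 genes (y axis, by role), with a panel for each of the 5 groups, lines for the standard error and filled points for an adjusted p under 0.05. Most points lie far left of 0, and in quadruple the slow fibre genes Myh7, Tnnc1 and Tnni1 and the tropomyosin gene Tpm2 lie closest to 0.

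All 14 fast fibre genes fell in quadruple (median -5.52), in triple K5Cre (-5.89) and in triple Bcat (-6.57). In the masses 12 of 14 fell and in the ventral tumours 2. Tnnc2 encodes fast troponin C, the calcium sensor of the fast thin filament. It read 12.13, 13.31, 13.74 and 13.13 in the 4 glands. In quadruple it ran 3.69 (lowest), 4.09 (median) and 12.73 (highest) and in triple K5Cre 3.77 (lowest), 4.11 (median) and 13.20 (highest). Triple Bcat read 4.53, 3.75 and 4.11, the masses 4.35 and 4.24 and the ventral tumours 3.85, 9.74 and 9.15. Quadruple 5, quadruple 9 and triple K5Cre 7 lay within the gland range, and quadruple 1 and 12 (11.23 and 11.27) just under it, while the other breast arrays were far below. The fitted difference was -7.15 (SE 1.62, adjusted p = 0.00181) in quadruple and -8.12 (SE 1.67, adjusted p = 0.000597) in triple K5Cre. It was -9.12 (adjusted p = 0.0139) in triple Bcat, -8.99 (adjusted p = 0.0253) in the masses and -5.71 (adjusted p = 0.231) in the ventral tumours. The triple Bcat call was lost without triple Bcat 1 (adjusted p = 0.0745), and the call in the masses without gland 3 (adjusted p = 0.061) or either mass.

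Tnni2, fast troponin I, holds the thin filament in its resting state. The glands read 11.01, 12.48, 12.85 and 12.16. Quadruple ran 4.15 (lowest), 5.05 (median) and 11.62 (highest) and triple K5Cre 4.32 (lowest), 4.74 (median) and 12.28 (highest). The arrays named above were again the high ones, and triple K5Cre 1, which was low in the other fast troponins, read 7.22. Triple Bcat read 5.22, 4.44 and 4.87, the masses 6.02 and 5.53 and the ventral tumours 5.64, 8.85 and 8.36. Tnni2 fell, at -6.18 (SE 1.26, adjusted p = 0.000596) in quadruple and -6.50 (SE 1.31, adjusted p = 0.000446) in triple K5Cre. It also fell in triple Bcat, -7.46 (adjusted p = 0.00998), and in the masses, -6.56 (adjusted p = 0.0368), but did not pass in the ventral tumours, -4.72 (adjusted p = 0.197). The call in triple Bcat was lost without triple Bcat 1 (adjusted p = 0.0577), and that in the masses without gland 2, 3 or 4 (0.0618, 0.0854 and 0.0669) or either mass.

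Tnnt3, fast troponin T, ties the troponin complex to tropomyosin. It read 10.51, 11.84, 12.30 and 11.38 in the glands, and 2.79 (lowest), 3.60 (median) and 11.04 (highest) in quadruple. Triple K5Cre ran 3.10 (lowest), 3.30 (median) and 11.92 (highest). Quadruple 5 and 9 (10.96 and 11.04) and triple K5Cre 7 (11.92) were within the gland range, and quadruple 8 and 7 came next after quadruple 1 and 12, at 7.59 and 7.05. Triple Bcat read 4.37, 3.68 and 3.40, the masses 3.94 and 4.58 and the ventral tumours 4.29, 8.03 and 7.59. The difference from gland was -6.60 (SE 1.43, adjusted p = 0.00119) in quadruple, -7.36 (SE 1.48, adjusted p = 0.000453) in triple K5Cre and -7.82 (adjusted p = 0.0174) in triple Bcat. In the masses it was -7.42 (adjusted p = 0.0377) and in the ventral tumours -5.05 (adjusted p = 0.231). Without triple Bcat 1 or gland 3 the triple Bcat call was lost (adjusted p = 0.0827 and 0.0562), and the call in the masses was lost without gland 2, 3 or 4 (0.063, 0.087 and 0.0629) or either mass.

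Myh4, the IIb myosin heavy chain of the fastest fibres, read 10.27, 11.49, 12.51 and 11.83 in the glands. In quadruple it ran 2.64 (lowest), 2.99 (median) and 11.17 (highest), and in triple K5Cre 2.75 (lowest), 2.99 (median) and 11.38 (highest). Quadruple 5 and 9 and triple K5Cre 7 were within the gland range, and quadruple 1 and 12 read 8.6 and 8.95, further under the lowest gland than for Tnnc2. Triple Bcat read 3.47, 3.30 and 2.76, the masses 3.04 and 2.91 and the ventral tumours 3.08, 8.61 and 7.31. The difference was -6.93 (SE 1.5, adjusted p = 0.00116) in quadruple, -7.82 (SE 1.55, adjusted p = 0.000394) in triple K5Cre and -8.55 (adjusted p = 0.013) in triple Bcat. It was -8.78 (adjusted p = 0.0187) in the masses and -5.42 (adjusted p = 0.219) in the ventral tumours. The triple Bcat call was lost without triple Bcat 1 (adjusted p = 0.0732), and that in the masses without gland 3 (0.0521) or either mass. Its relatives Myh1 (IIx) and Myh2 (IIa) fell, at -6.36 and -4.20 in quadruple. Myh1 was nearly level over the high arrays, from 10.12 to 11.74 over the glands, quadruple 1, 5, 9 and 12, triple K5Cre 7 and ventral tumour 2 (10.59). Myh2 in quadruple 1 and 12 (7.79 and 7.64) was within its gland range of 7.33 to 8.55, unlike Myh4.

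Mybpc2, the fast myosin-binding protein C of the thick filament, read 8.84, 10.96, 11.39 and 10.72 in the glands. Quadruple ran 3.50 (lowest), 4.57 (median) and 10.52 (highest) and triple K5Cre 3.67 (lowest), 4.27 (median) and 10.74 (highest). Quadruple 5 and 9 and triple K5Cre 7 were within the gland range. Triple K5Cre 6 and 1 read 6.45 and 6.24, above the rest of that group. Triple Bcat read 3.76, 4.46 and 4.08, the masses 4.47 and 4.04 and the ventral tumours 4.19, 7.97 and 7.48, so that ventral tumours 2 and 3 were well above the first. The difference was -5.33 (SE 1.11, adjusted p = 0.000763) in quadruple, -5.34 (SE 1.15, adjusted p = 0.000994) in triple K5Cre and -6.64 (adjusted p = 0.00915) in triple Bcat. In the masses it was -6.46 (adjusted p = 0.0194) and in the ventral tumours -4.16 (adjusted p = 0.197). These calls were lost in triple Bcat without triple Bcat 1 (adjusted p = 0.0743) and in the masses without gland 3 (0.0547) or either mass.

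The other fast fibre genes followed the same arrays. The myosin light chains Myl1 and Mylpf fell, at -5.63 and -5.64 in quadruple and at -6.66 and -5.93 in triple K5Cre. Pvalb, the calcium buffer parvalbumin, fell, at -5.34 and -5.72, and Atp2a1, the fast calcium pump SERCA1, at -4.96 and -5.31. Casq1, which stores calcium in the sarcoplasmic reticulum, fell, at -4.63 and -4.92. Actn3 and Myoz1, of the fast fibre's Z-disc, fell, at -5.42 and -4.34 in quadruple and -5.85 and -4.64 in triple K5Cre. In the ventral tumours Atp2a1, at -4.91 (adjusted p = 0.0472) and Myoz1, at -4.14 (adjusted p = 0.04) were the fast fibre genes that fell. Both calls were lost with animal means. They were also lost without gland 2, gland 3, ventral tumour 1 or the 3 arrays low in Xist, settings in which none of the 41 genes passed. Without gland 4 or ventral tumour 3 only 1 of the 41 passed, so at least 1 of these calls was lost there too. All 14 fast fibre genes were below every gland in all 3 ventral tumour arrays, which came from 1 animal. No share over all genes is given beside this count, so it does not show that the separation is unusual. Atp2a1 read 5.17, 6.68 and 6.74, and Myh1 read 4.21, 10.59 and 9.71 and did not pass, at -3.20 (adjusted p = 0.544).

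The slow fibre genes differed among the muscle-rich arrays, and 2 of the 5 fell in quadruple (median -1.14) and in triple K5Cre (-1.30). Myh7, the slow myosin heavy chain, read 7.69, 4.38, 4.16 and 4.97 in the glands, and in quadruple 3.90 (lowest), 4.34 (median) and 6.92 (highest). Its high values were in gland 1 and in quadruple 1 and 12 (6.67 and 6.92), with triple K5Cre 7 next at 5.57. Glands 2 and 3, quadruple 5 (4.37) and quadruple 9 (4.23) were at the level of arrays with little muscle signal. Triple K5Cre ran 3.95 (lowest), 4.34 (median) and 5.57 (highest). Triple Bcat read 4.54, 4.16 and 4.41, the masses 4.17 and 4.0 and the ventral tumours 4.34, 4.29 and 4.18, so the ventral tumours with raised fast genes had no raised Myh7. The difference from gland did not pass in quadruple, -0.77 (SE 0.41, adjusted p = 0.218), or triple K5Cre, -0.80 (SE 0.42, adjusted p = 0.204). Without the 2 arrays of Q190, a fit added after seeing the data, it passed in quadruple (-1.0, adjusted p = 0.0301). In triple Bcat it was -0.91 (adjusted p = 0.396), in the masses -1.21 (adjusted p = 0.28) and in the ventral tumours -1.03 (adjusted p = 0.445).

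Tnnc1, slow troponin C, showed the same arrays. The glands read 8.44, 4.48, 4.71 and 5.68, and quadruple ran 4.12 (lowest), 4.45 (median) and 7.58 (highest). Gland 1 was highest, followed by quadruple 12 and 1 (7.58 and 6.94), and all other arrays were at 5.68 or lower. Triple K5Cre ran 4.07 (lowest), 4.36 (median) and 5.5 (highest). Triple Bcat read 4.65, 4.31 and 4.43, the masses 4.64 and 4.48 and the ventral tumours 4.84, 4.94 and 5.1. Groups overlapped throughout, with 9 of 19 quadruple arrays at or above the lowest gland. The difference was -1.14 (SE 0.45, adjusted p = 0.0854) in quadruple and -1.30 (SE 0.47, adjusted p = 0.0504) in triple K5Cre, neither past the test. It passed in quadruple without gland 2 (-1.56, adjusted p = 0.0315) or gland 3 (-1.52, 0.0468), and in triple K5Cre without gland 2 (-1.68, 0.0182), gland 3 (-1.71, 0.0282) or triple K5Cre 7 (-1.42, 0.0316). Without Q190 it passed in both (-1.40, 0.00447 and -1.32, 0.00965). In triple Bcat it was -1.34 (adjusted p = 0.228), in the masses -1.26 (adjusted p = 0.316) and in the ventral tumours -0.86 (adjusted p = 0.597).

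Tnnt1, slow troponin T, was less even over the glands, at 8.47, 4.24, 7.67 and 6.21. Quadruple ran 3.70 (lowest), 4.29 (median) and 8.56 (highest) and triple K5Cre 3.89 (lowest), 4.31 (median) and 4.65 (highest). The highest quadruple values were again quadruple 12 and 1 (8.56 and 8.47), at the level of gland 1, followed by quadruple 8 at 6.41. Triple Bcat read 3.97, 4.35 and 4.46, the masses 4.93 and 4.11 and the ventral tumours 4.09, 4.87 and 5.40. Tnnt1 fell in quadruple, -1.84 (SE 0.61, adjusted p = 0.0352), and in triple K5Cre, -2.41 (SE 0.63, adjusted p = 0.00639). The quadruple call was lost without gland 1, 3 or 4 (adjusted p = 0.226, 0.183 and 0.0528) or without the animal block (0.0609), and the triple K5Cre call without gland 3 (0.0643). It did not pass in triple Bcat, -2.41 (adjusted p = 0.0951), in the masses, -2.12 (adjusted p = 0.19), or in the ventral tumours, -1.85 (adjusted p = 0.321), but did in triple Bcat without gland 2 (adjusted p = 0.026).

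Tnni1, slow troponin I, did not follow the muscle genes over all arrays. It read 7.46, 5.18, 5.0 and 5.70 in the glands and 5.07 (lowest), 6.86 (median) and 9.50 (highest) in quadruple. The highest value of all was in quadruple 8 (9.50), where the mean of the 41 genes was 5.27, and triple K5Cre 7, with high fast genes, was among the lowest at 4.79. Triple K5Cre ran 4.66 (lowest), 5.87 (median) and 8.0 (highest). Triple Bcat read 6.57, 6.56 and 5.77, the masses 7.44 and 7.95 and the ventral tumours 8.04, 7.75 and 8.61. All 19 quadruple arrays were at or above the lowest gland. The difference was 0.84 (SE 0.59, adjusted p = 0.385) in quadruple, 0.11 (SE 0.61, adjusted p = 0.934) in triple K5Cre and 0.44 (adjusted p = 0.83) in triple Bcat, with none past the test. In the masses it was 1.81 (adjusted p = 0.259) and in the ventral tumours 2.25 (adjusted p = 0.189). The triple K5Cre value turned sign without gland 2, 3 or 4 (-0.09, -0.04 and -0.03).

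Mybpc1, listed as the slow form of myosin-binding protein C, went with the fast genes. The glands read 8.39, 8.58, 9.31 and 8.70, with gland 1 no higher than the others. Quadruple ran 3.66 (lowest), 4.70 (median) and 8.34 (highest) and triple K5Cre 3.84 (lowest), 4.21 (median) and 8.79 (highest). Quadruple 1, 5, 9 and 12 (8.08, 8.34, 8.0 and 8.31) were just under the lowest gland, and triple K5Cre 7 was within the gland range. Triple Bcat read 4.69, 4.03 and 3.86, the masses 4.20 and 4.77 and the ventral tumours 4.74, 7.04 and 6.59. Mybpc1 fell, at -3.76 (SE 0.79, adjusted p = 0.000781) in quadruple, -4.02 (SE 0.82, adjusted p = 0.000484) in triple K5Cre, -4.66 (adjusted p = 0.00997) in triple Bcat and -4.41 (adjusted p = 0.0244) in the masses. The call in the masses was lost without gland 3 (adjusted p = 0.0614) or either mass, and the ventral tumours did not pass, -2.78 (adjusted p = 0.231).

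Subtracting the slow from the fast gene of a pair within each array sets the arrays side by side. For Tnnc2 minus Tnnc1 the glands gave 3.68, 8.83, 9.03 and 7.45. Quadruple 1 and 12 gave 4.29 and 3.68, close to gland 1, and quadruple 5 and 9 and triple K5Cre 7 gave 8.18, 7.91 and 7.70, close to glands 2 to 4. For Myh4 minus Myh7 the glands gave 2.59, 7.11, 8.35 and 6.86, quadruple 1 and 12 gave 1.92 and 2.04, and quadruple 5, 9 and triple K5Cre 7 gave 6.79, 6.87 and 5.80. For Tnnt3 minus Tnnt1 the glands gave 2.04, 7.6, 4.64 and 5.17, and the same breast arrays gave 1.23 and 0.98, then 5.27, 6.71 and 7.53. Tnni2 minus Tnni1 gave 3.55, 7.3, 7.85 and 6.47 in the glands. In the same breast arrays it gave 2.6 and 2.38, then 5.8, 6.15 and 7.49. Mybpc2 minus Mybpc1 gave 0.44, 2.38, 2.08 and 2.02 in the glands. In those breast arrays it gave 0.12 and 0.2, then 2.18, 1.82 and 1.95. The mean over the 5 pairs was 5.27 ± 1.93 (SD, n = 4) in gland, 0.42 ± 2.27 (n = 19) in quadruple and 0.18 ± 2.43 (n = 8) in triple K5Cre. It was -0.71 ± 0.08 (n = 3) in triple Bcat, -0.76 ± 0.06 (n = 2) in the masses and 1.29 ± 2.03 (n = 3) in the ventral tumours. Where both genes are near their lowest values the difference says nothing about fibres. The same holds for the troponin I pair where Tnni1 was high with little other muscle signal. That pair gave -3.38 in quadruple 8 and -2.4 in ventral tumour 1. The mean over the 5 pairs includes it, so group means near or under 0 are not a measure of fibre type.

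**Figure D3:**
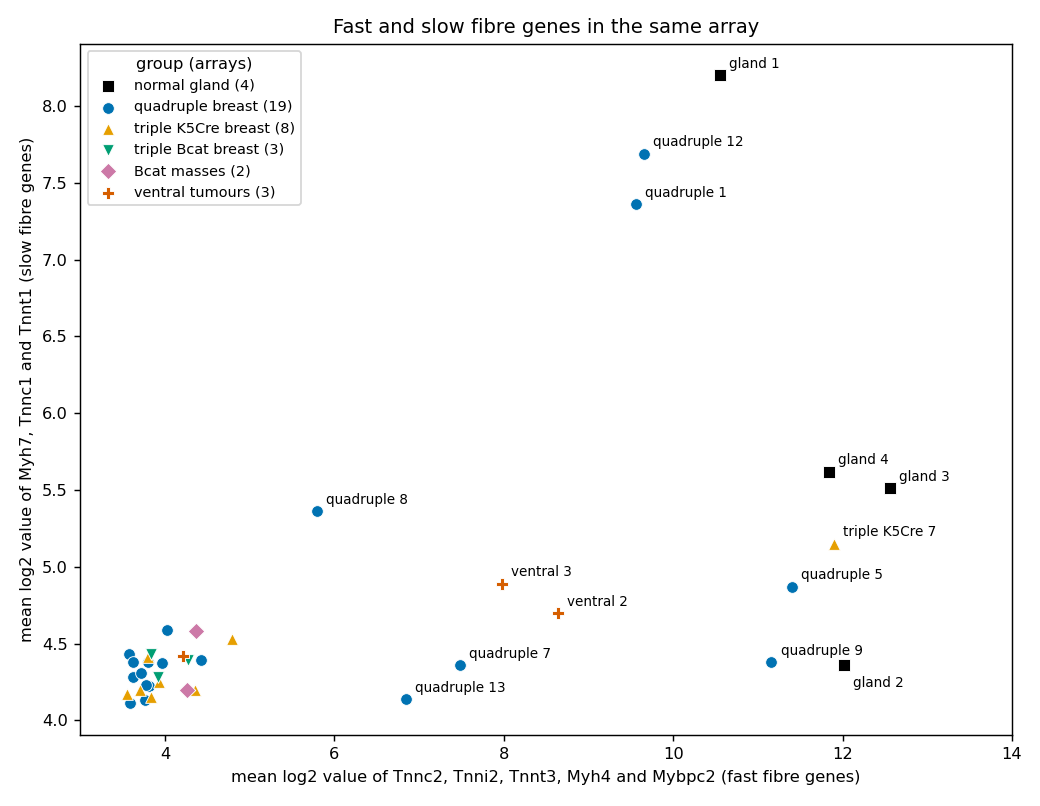
Each point is 1 array, with the mean log2 value of the 5 fast pair genes on the x axis, the mean of Myh7, Tnnc1 and Tnnt1 on the y axis, and colour and shape for the group. These slow genes were chosen after their values were seen. Left out are Tnni1, which was also high in arrays with little other muscle signal, and Mybpc1, which went with the fast genes. Gland 1, quadruple 1 and quadruple 12 lie high on both axes (8.20, 7.36 and 7.69 on the y axis), while gland 2, quadruple 9 and quadruple 5 lie high on the x axis and low on the y axis (4.36, 4.38 and 4.87).

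Gland 1 is the only gland from a triple Bcat animal, so genotype and animal cannot be told apart for its values. Quadruple 1 and 12 are from 1 animal. In other muscle-rich arrays of quadruple animals (quadruple 5, quadruple 9 and gland 2), the mean of Myh7, Tnnc1 and Tnnt1 was 4.87, 4.38 and 4.36. The cause of these differences was not tested. Myl2, the slow regulatory light chain, chosen after its values were seen, is not among the 41 genes and was highest in gland 1 and quadruple 1 and 12. It read 9.22, 4.71, 4.23 and 6.36 in the glands, 6.40 and 6.74 in quadruple 1 and 12, and at most 3.82 in the other breast, mass and tumour arrays.

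Of the 10 genes of the shared sarcomere, 9 fell in quadruple (median -4.51), in triple K5Cre (-4.88) and in triple Bcat (-5.42), and 7 in the masses. Acta1, skeletal alpha-actin of the thin filament, read 12.68, 13.31, 13.82 and 13.31 in the glands. In quadruple it ran 5.1 (lowest), 6.28 (median) and 12.80 (highest) and in triple K5Cre 5.1 (lowest), 5.49 (median) and 13.47 (highest). Only quadruple 9 (12.80) and triple K5Cre 7 reached the lowest gland, with quadruple 5 at 12.57 and quadruple 1 and 12 at 11.81 and 11.83. Triple Bcat read 5.1, 6.69 and 7.54, the masses 6.55 and 6.47 and the ventral tumours 5.23, 11.86 and 11.03. Acta1 fell, at -5.94 (SE 1.42, adjusted p = 0.00304) in quadruple, -6.96 (SE 1.47, adjusted p = 0.000777) in triple K5Cre, -7.19 (adjusted p = 0.0281) in triple Bcat and -7.0 (adjusted p = 0.0485) in the masses. The triple Bcat call was lost without triple Bcat 1 or 2 (adjusted p = 0.213 and 0.0504) or gland 3 or 4 (0.0756 and 0.0595), and the call in the masses without any one of the 4 glands (0.0595 to 0.102) or either mass. The ventral tumours did not pass, -4.13 (adjusted p = 0.349).

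Des, the intermediate filament desmin that links sarcomeres, is also made by smooth muscle. It read 8.55, 9.60, 10.30 and 9.19 in the glands, 6.31 (lowest), 6.65 (median) and 9.90 (highest) in quadruple and 6.34 (lowest), 6.45 (median) and 9.93 (highest) in triple K5Cre. Quadruple 5 and 12 (9.90 and 8.65) and triple K5Cre 7 reached the gland range, and quadruple 1 and 9 (8.44 and 8.25) were just under it. Triple Bcat read 6.50, 6.90 and 6.68, the masses 7.08 and 6.21 and the ventral tumours 6.61, 8.21 and 7.90. It fell, at -2.40 (SE 0.53, adjusted p = 0.00135) in quadruple, -2.64 (SE 0.55, adjusted p = 0.000632) in triple K5Cre and -2.82 (adjusted p = 0.0199) in triple Bcat, and at -2.85 (adjusted p = 0.0302) in the masses. The triple Bcat call was lost without triple Bcat 1 or gland 3 (adjusted p = 0.136 and 0.0791), and the call in the masses without gland 2 or 3 (0.0533 and 0.09) or either mass. The ventral tumours gave -1.92 (adjusted p = 0.214). Its other probe set read 3.95 ± 0.26 (SD, n = 4) in gland and 3.47 ± 0.23 (n = 19) in quadruple.

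Tpm2, beta-tropomyosin, is spliced into a skeletal form and a form of smooth muscle and other cells. Its brightest probe set was high everywhere, at 11.07, 11.57, 12.38 and 12.01 in the glands, and ran 9.14 (lowest), 11.46 (median) and 12.96 (highest) in quadruple and 9.86 (lowest), 11.21 (median) and 12.39 (highest) in triple K5Cre. Triple Bcat read 12.19, 11.73 and 11.38, the masses 12.27 and 12.09 and the ventral tumours 11.91, 12.02 and 12.36. Groups overlapped, and the highest array was quadruple 16, with little signal in the other muscle genes. The differences were -0.41 (SE 0.39, adjusted p = 0.55) in quadruple and -0.67 (SE 0.40, adjusted p = 0.272) in triple K5Cre, with none past the test. They were -0.06 (adjusted p = 0.969) in triple Bcat, 0.30 (adjusted p = 0.835) in the masses and 0.22 (adjusted p = 0.91) in the ventral tumours, the last turning to -0.04 without gland 1 and that in triple Bcat to 0.11 and 0.28 without triple Bcat 3 and gland 3. The 4 probe sets of Tpm2 disagreed: the third by mean read 9.82 ± 0.76 (n = 4) in gland, 7.02 ± 1.06 (n = 19) in quadruple and 7.01 ± 1.20 (n = 8) in triple K5Cre. With the mean of all 4, Tpm2 fell in quadruple (-1.41, adjusted p = 0.00407) and in triple K5Cre (-1.53, 0.00254), and its difference in the masses and the ventral tumours turned negative (-1.12 and -0.91).

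Most of the other shared sarcomere genes had the block pattern. Ttn, the giant spring protein titin, fell, at -5.29 in quadruple and -6.46 in triple K5Cre, and its level in quadruple 5 (11.63) was above every gland (8.70 to 11.26). Neb, nebulin of the thin filament, fell, at -5.1 and -5.62, and the Z-disc gene Tcap, which caps titin, at -3.92 and -4.14. Myot, myotilin of the Z-disc, fell, at -5.52 and -6.04, and Actn2, the Z-disc actinin of both fibre types, at -2.82 and -3.08. Smpx, a small muscle protein, fell, at -5.16 and -5.82 and read 6.13 in quadruple 15, where the mean of the 41 genes was 4.53. Ldb3, a Z-disc adaptor, fell, at -2.54 (SE 0.86, adjusted p = 0.0388) and -3.14 (SE 0.89, adjusted p = 0.0116). It was raised in arrays without the block, such as quadruple 16 (8.33) and quadruple 3 (7.39).

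All 4 calcium handling genes fell in quadruple (median -3.57) and triple K5Cre (-3.86), 3 fell in triple Bcat and in the masses, and 1 in the ventral tumours. Ryr1, the calcium release channel, fell, at -3.91 (SE 0.78, adjusted p = 0.000474) and -4.17 (SE 0.81, adjusted p = 0.000297). Cacna1s, the voltage sensor of the T-tubule, fell, at -3.23 (SE 0.58, adjusted p = 0.000138) and -3.56 (SE 0.60, adjusted p = 5.67e-05), and Trdn, triadin, which anchors the release complex, at -4.44 (SE 0.89, adjusted p = 0.000492) and -4.72 (SE 0.92, adjusted p = 0.000322). Quadruple 2, with a mean of the 41 genes of 4.79, read 5.36 for Cacna1s, above quadruple 1 and 12 (4.64 and 4.57).

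Sln, sarcolipin, an inhibitor of the calcium pump, varied widely among the glands, at 5.74, 3.83, 7.15 and 6.72. Quadruple ran 3.21 (lowest), 3.71 (median) and 7.37 (highest) and triple K5Cre 3.36 (lowest), 3.65 (median) and 5.86 (highest). The highest arrays were quadruple 5 (7.37), gland 3 and quadruple 1 (7.06), while gland 2 and quadruple 9 (4.62), rich in fast genes, were low. Triple Bcat read 3.97, 3.61 and 3.27, the masses 3.45 and 3.62 and the ventral tumours 3.48, 6.03 and 5.45. Sln fell in quadruple, -1.79 (SE 0.61, adjusted p = 0.0426), and in triple K5Cre, -2.13 (SE 0.63, adjusted p = 0.0165). The quadruple call was lost without gland 1, 3 or 4 (adjusted p = 0.0762, 0.238 and 0.165), and the triple K5Cre call without gland 3 or 4 (0.138 and 0.0865). Without the animal block neither passed (0.0659 and 0.0543). The second Sln probe set read 3.19 ± 0.14 (n = 4) in gland and 3.30 ± 0.21 (n = 19) in quadruple. Sln did not pass in triple Bcat, -2.28 (adjusted p = 0.119), the masses, -2.40 (adjusted p = 0.13), or the ventral tumours, -0.94 (adjusted p = 0.687), but did in triple Bcat without gland 2 (adjusted p = 0.0463).

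All 8 energy genes fell in quadruple (median -4.14), triple K5Cre (-4.40), triple Bcat (-5.04) and the masses (-4.79), and 3 fell in the ventral tumours. Ckm, the creatine kinase that recharges ATP at the myofibril, read 11.47, 12.87, 13.28 and 12.63 in the glands. Quadruple ran 4.70 (lowest), 5.19 (median) and 12.20 (highest) and triple K5Cre 4.90 (lowest), 5.02 (median) and 12.54 (highest). Quadruple 5 and 9 (12.20 and 11.98) and triple K5Cre 7 were within the gland range, quadruple 1 and 12 (10.32 and 10.26) under it, and quadruple 7 and 13 (8.06 and 7.66) between. Triple Bcat read 5.41, 5.03 and 4.83, the masses 5.18 and 5.24 and the ventral tumours 5.29, 9.24 and 8.49. Ckm fell, at -6.15 (SE 1.27, adjusted p = 0.000676) in quadruple, -6.82 (SE 1.31, adjusted p = 0.000279) in triple K5Cre, -7.61 (adjusted p = 0.00885) in triple Bcat and -7.52 (adjusted p = 0.017) in the masses. The triple Bcat call was lost without triple Bcat 1 (adjusted p = 0.0543) and that in the masses without either mass, and the ventral tumours did not pass, -5.06 (adjusted p = 0.164).

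Mb, myoglobin, the oxygen store of muscle, followed the block in the muscle-rich arrays but was also high elsewhere. It read 9.93, 10.72, 11.06 and 10.38 in the glands, 5.44 (lowest), 6.86 (median) and 10.58 (highest) in quadruple and 6.43 (lowest), 7.59 (median) and 10.91 (highest) in triple K5Cre. Quadruple 1 and 12 (10.58 and 10.24) and triple K5Cre 7 (10.11) were within the gland range. So was triple K5Cre 6 at 10.91, and triple K5Cre 1 (9.57), quadruple 3 (9.22) and quadruple 16 (9.14) were near it, although the mean of the 41 genes in these 4 arrays was 4.6, 4.86, 4.53 and 4.66. Triple Bcat read 5.53, 6.44 and 5.83, the masses 6.33 and 6.33 and the ventral tumours 6.55, 7.53 and 7.24. Mb fell, at -3.29 (SE 0.78, adjusted p = 0.00293) in quadruple, -2.58 (SE 0.81, adjusted p = 0.0228) in triple K5Cre, -4.82 (adjusted p = 0.00741) in triple Bcat and -4.38 (adjusted p = 0.0244) in the masses, and did not pass in the ventral tumours, -3.61 (adjusted p = 0.101). The triple K5Cre call was lost without gland 3 or 4 (adjusted p = 0.0933 and 0.0698) or the animal block (0.0684), the triple Bcat call without triple Bcat 1 (0.0722), and the call in the masses without gland 3 (0.0595) or either mass. The second Mb probe set read 4.99 ± 0.11 (n = 4) in gland and 5.20 ± 0.19 (n = 19) in quadruple.

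**Figure D4:**
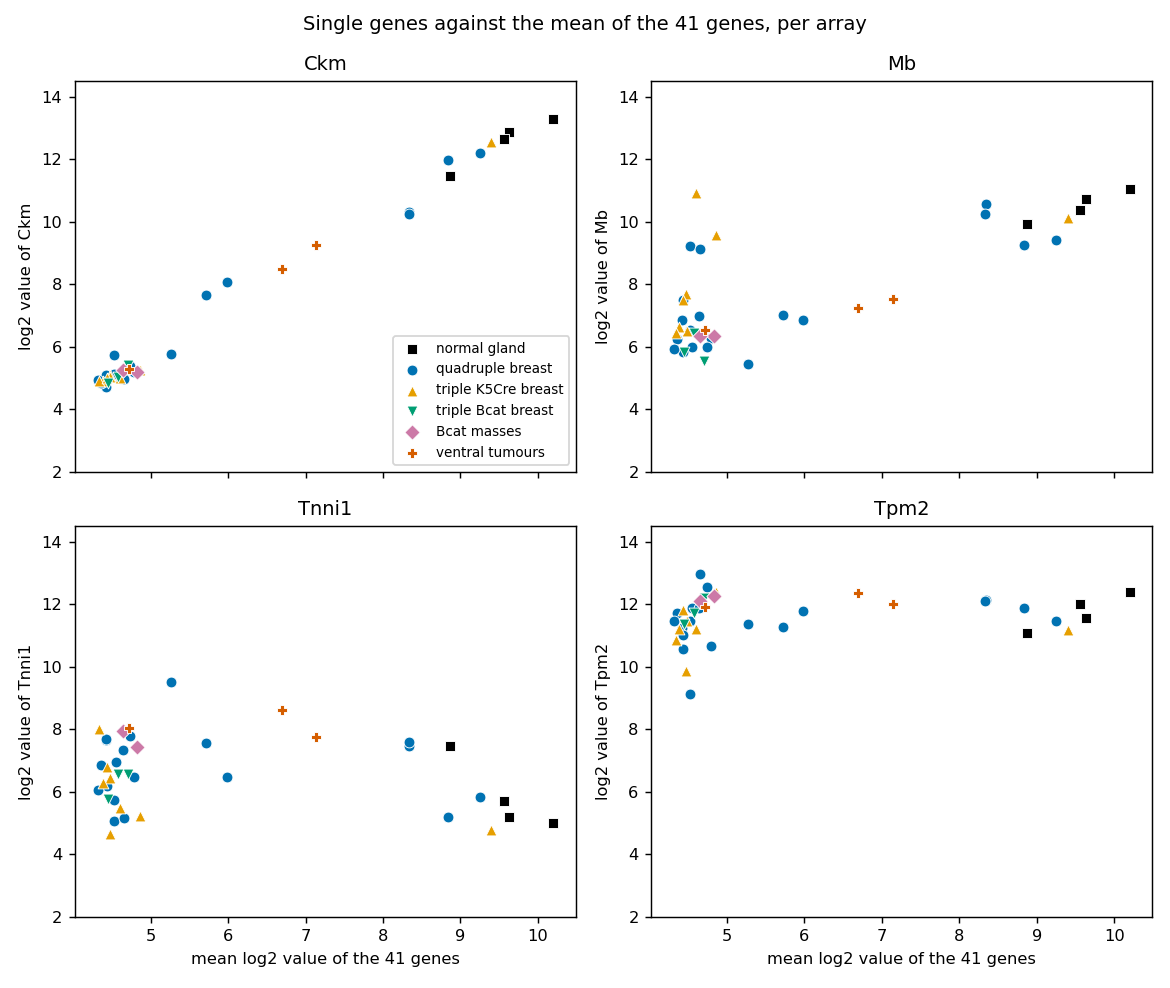
Each panel plots the log2 value of 1 gene (y axis) against the mean of the 41 genes (x axis) per array, with colour and shape for the group, and the mean includes the gene itself. Ckm rises with the mean in a narrow band, Mb is above 9 in 4 arrays with a mean under 5, Tnni1 has its highest value at a mean of 5.27, and Tpm2 is high over the whole range.

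The other energy genes kept to the block. Ckmt2, the mitochondrial creatine kinase, fell, at -4.79 in quadruple and -4.90 in triple K5Cre. In the ventral tumours Ckmt2 fell, at -5.12 (adjusted p = 0.0256). That call was lost with animal means and without gland 2, gland 3, ventral tumour 1 or the 3 arrays low in Xist. The muscle glycolytic genes Pgam2 and Eno3 fell, at -4.01 and -4.67 in quadruple and -4.19 and -4.87 in triple K5Cre. Pygm, which breaks down glycogen in muscle, fell, at -4.27 and -4.62 and read 6.74 in quadruple 15, as high as in quadruple 1. Cox6a2, the muscle form of a respiratory chain subunit, fell, at -3.64 and -3.69. Ampd1, the muscle AMP deaminase, fell, at -3.27 and -3.43. In the ventral tumours Ckmt2 read 2.66, 3.28 and 3.47 and Pygm 3.75, 4.38 and 4.17, against gland ranges of 7.28 to 8.81 and 7.25 to 9.74.

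Between quadruple and the other groups no gene of the 41 passed. Against triple K5Cre the median difference was 0.33, none of the 41 had even an unadjusted p under 0.05 in limma, and 0% of all genes passed. Against triple Bcat the median was 0.88 (0.033% of all genes passed), against the masses 0.81 (0.214%) and against the ventral tumours -0.64 (0.143%), each again with 0 of 41 at an unadjusted p under 0.05. The median standard error of a gene ranged from 0.67 against triple K5Cre to 1.23 against the ventral tumours, so differences of this size were within the error. With array weights 8 genes passed against the ventral tumours.

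In the animals T627 and T635, gland and breast came from the same mouse. All 41 genes were lower in the breast array of T627 (median difference -5.95, from -9.77 for Myh4 to -0.17 for Myh7). In T635, 40 of 41 were lower (median -5.14), with Tnnc2 at 13.13 in gland and 3.90 in breast, and Tnni1 the exception at 5.70 and 6.45. With 2 animals no test was made.

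Lists of related genes that are no members were followed in the same fit, with p adjusted over all genes tested, of which 9.66% fell in quadruple and 9.79% in triple K5Cre. Of 19 measured genes of the Z-disc and M-band, 13 fell and none rose in quadruple (median -2.15), the most negative being Klhl41, a muscle kelch protein, at -4.75 (SE 0.95, adjusted p = 0.000487), and Myom2, myomesin of the M-band, at -3.94 (SE 0.70, adjusted p = 0.000129). Of 14 excitation and contraction coupling genes 9 fell (median -1.49), led by Mylk4, a kinase, at -3.53 (SE 0.52, adjusted p = 8.9e-06), and Srl, sarcalumenin, at -2.97 (SE 0.55, adjusted p = 0.000175). Of 15 muscle metabolism genes 12 fell (median -2.07), led by Art3, at -3.67 (SE 0.55, adjusted p = 1.2e-05) and Cox8b, a respiratory chain subunit, at -3.48 (SE 0.81, adjusted p = 0.00247), while Ucp3 did not pass, at -0.70 (adjusted p = 0.528). Of 10 dystrophin complex genes 4 fell (median -0.33), among them Capn3, a muscle protease, at -1.80 (SE 0.30, adjusted p = 4.12e-05). The 7 further genes of slow fibres had 3 falls (median -0.07), led by Myl2, at -2.58 (SE 0.53, adjusted p = 0.000575) and Myoz2, at -2.12 (SE 0.42, adjusted p = 0.00037). Atp2a2, a calcium pump of slow fibres and heart, gave 0.34 (adjusted p = 0.0784). Its group means were high throughout (11.25 to 11.86), as were those of Tpm3 in the same list (11.39 to 11.98). The list median includes both, so it does not show that slow fibre signal held steady. In triple K5Cre the falls numbered 13 of 19, 9 of 14, 11 of 15, 4 of 10 and 3 of 7 in the same order.

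Counts for genes of the muscle stem cell and the motor endplate are to be read beside the 9.66% of all genes that fell in quadruple. None of 9 neuromuscular junction genes passed in limma in quadruple (1 at an unadjusted p under 0.05, median 0), with Chrnb1, an acetylcholine receptor subunit, at -0.80 (adjusted p = 0.267) and Musk, the receptor kinase of the endplate, at 0.19 (adjusted p = 0.172). Of 11 myogenic regulators 2 fell, where 9.66% of all genes did: Myf6, the regulator kept on in mature fibres, at -2.30 (SE 0.59, adjusted p = 0.00569), and Vgll2, a muscle cofactor, at -1.96 (SE 0.23, adjusted p = 1.81e-07). Pax7, the marker of satellite cells, stayed between 3.11 and 3.82 over all 39 arrays, Myod1 between 3.29 and 4.44 and Myog between 3.07 and 4.30. A low value could not be separated from background, so values this low do not show whether these genes changed. The highest Myod1 and Myog values were in quadruple 5 (4.44 and 4.30). The sum of 5 satellite cell and myoblast markers ran from 18.32 to 19.54 in gland and from 17.43 to 20.30 in quadruple.

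Myh6, the cardiac myosin heavy chain, averaged 2.62 in gland, and the sum of 4 cardiac markers ran from 12.99 to 14.25 in gland and 12.87 to 16.91 in quadruple. Of 10 cardiac genes 3 fell and 1 rose in quadruple: Tnnt2, cardiac troponin T, rose, at 2.02 (SE 0.61, adjusted p = 0.0185), while the 3 fast troponins and Tnnt1 fell. Of all genes 9.66% fell and 5.7% rose in this comparison. Myom2, among the 3 cardiac genes that fell, is also in the Z-disc and M-band list. In triple K5Cre Tnnt2 rose, at 3.02 (SE 0.63, adjusted p = 0.000632), from 3.95, 3.52, 4.21 and 4.07 in the glands to 5.93 (lowest), 7.01 (median) and 8.37 (highest), so the groups did not overlap.

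Adipocyte genes were also lower than in gland, but their levels in the muscle-rich breast arrays differed. Of 8 measured adipocyte genes 7 fell in quadruple (median -6.08, against 9.66% of all genes), with Adipoq, adiponectin, at -6.46 (SE 1.57, adjusted p = 0.0035). The mean of these 8 genes was 12.89 to 13.19 in gland. It was 6.33 and 7.62 in quadruple 1 and 12, 9.14 in quadruple 5 and 9.16 in triple K5Cre 7, all rich in muscle signal, and 11.82 in quadruple 9. Quadruple 2 read 12.87, near the glands, with a muscle mean of 4.79. The part of fat content in the muscle differences was not tested.

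Of 10 smooth muscle and myoepithelial genes 2 fell in quadruple (6 at an unadjusted p under 0.05, median -1.13), where 9.66% of all genes did, with Acta2, smooth muscle actin, at -0.98 (adjusted p = 0.146) and Myh11, smooth muscle myosin, at -2.71 (adjusted p = 0.0582). Epcam, an epithelial adhesion gene, gave -0.26 (adjusted p = 0.811), and Krt14, a basal keratin, gave 2.17 (adjusted p = 0.107). Krt14 was 13.46 and 13.53 in quadruple 1 and 12, against 8.63 to 11.24 in the glands, so these arrays held basal epithelial signal beside that of muscle. Of 7 luminal genes 1 fell (median -0.72), and of 5 basal genes 1 fell, Oxtr, the oxytocin receptor, at -2.55 (SE 0.77, adjusted p = 0.019). Oxtr is also in the smooth muscle and myoepithelial list, and 9.66% of all genes fell. Of 8 brown fat genes 3 fell, including Cox8b and Cox7a1, which muscle also makes. The part of these cell types in the muscle differences was not tested.

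**Figure D5:**
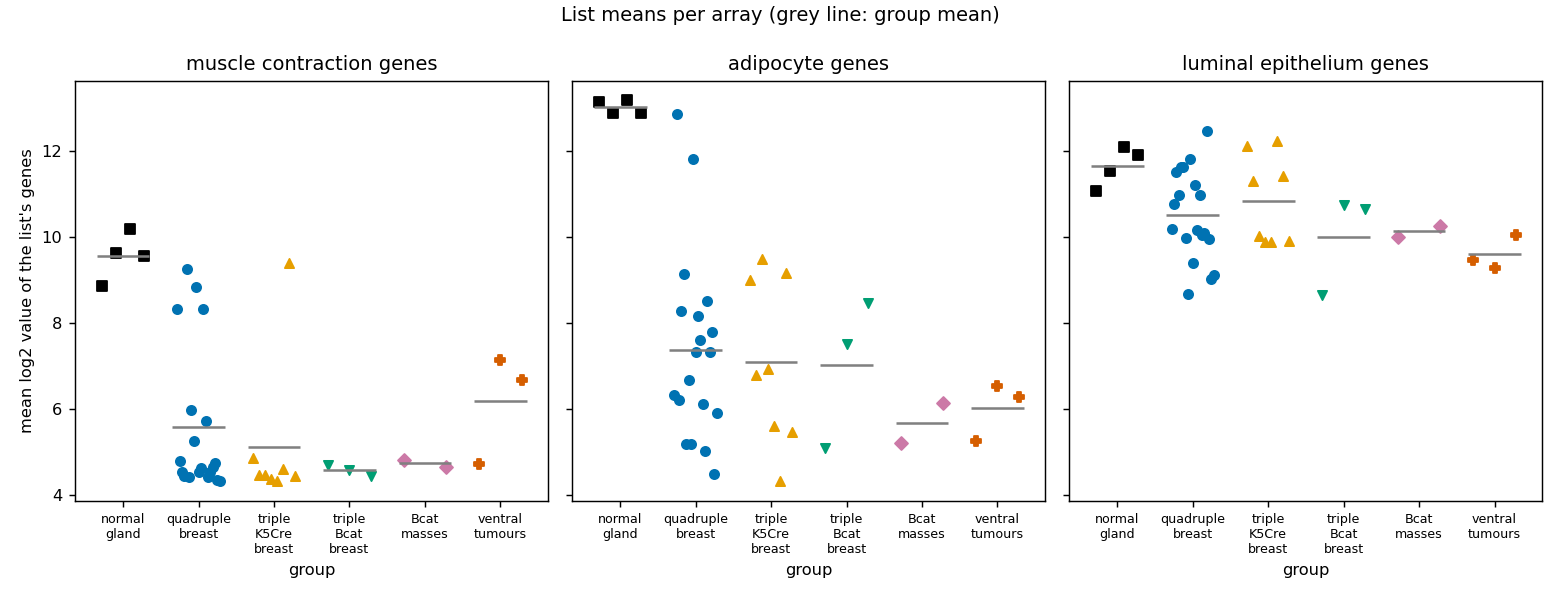
Mean log2 value of the 41 muscle genes, the 8 adipocyte genes and the 7 luminal genes (y axis) in each array, by group (x axis), with a grey line at the group mean. The arrays of quadruple and triple K5Cre that are high for muscle are spread over the adipocyte panel from 6.33 to 11.82, and the group means of the luminal genes run from 9.61 in the ventral tumours to 11.66 in gland.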

How the data were processed

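Expression was measured in 39 mouse tissue samples, with 1 Affymetrix array each. For 45101 probe sets the authors deposited log2 values made with RMA, per the submitters' processing notes, and the RMA version was not given in the sources used here. RMA corrects background, normalizes between arrays and summarises probes. Values ran from 1.65 to 14.61, and 0 columns were left unused. Detection calls were not used here, and precision is limited by how many arrays a group has.

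Gene names came from the platform annotation, which can be old, and were checked in a RefSeq table (GRCm38.p6). A single gene was given for 34958 probe sets, several for 932 and none for 9211, and 204 symbols had no match in RefSeq. This left 18194 genes with 1 probe set each, of which 100 had only one marked as cross-hybridising. Besides Des, Mb, Sln and Tpm2, probe sets of 1 gene also disagreed for Myh1, Ttn and Trdn. The correlation of the one used with the others ran from 0.172 to 0.998 for Myh1 (3 probe sets). It ran from 0.227 to 0.985 for Ttn (6) and from 0.435 to 0.994 for Trdn (6).

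Samples were grouped by genotype and tissue labels into 6 groups, with animals read from the titles. A single limma fit gave 9 comparisons, with the animal as a random block (consensus correlation 0.329), eBayes with a trend and Benjamini-Hochberg adjustment over all genes. A fitted difference therefore need not equal the difference of group means. The labels do not say how samples of different animals were raised or handled, so p-values measure only the spread between these samples. That spread was pooled per gene over all 6 groups. The error of a comparison with a small group therefore also carries the gene's spread in quadruple and triple K5Cre. For Acta1 the SD was 0.05 in the masses, 0.47 in gland and 2.74 in quadruple. Its SE for the masses against gland was 2.23. No pair of arrays was identical (highest correlation 0.9959).

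The members and lists were chosen with earlier results of these data known. Given array by array were the 5 fast and slow pairs and Acta1, Ckm, Des, Tpm2, Sln and Mb. From each other list at most 4 genes were eligible, the 2 most negative and the 2 most positive in quadruple against gland, besides Pax7, Myod1, Myog, Acta2, Adipoq, Krt14 and Epcam. Xist, Myh6, Casq2, Elf5, Krt8, the level of Myl2 by array and the mean of Myh7, Tnnc1 and Tnnt1 were chosen after their values were seen.

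Alternatives were no animal block, animal means, the compared groups alone, a filter on genes with low means, array weights, cyclic loess, eBayes without a trend, averaging all probe sets of a gene, and each array of groups of 2 to 5 left out. Fits without triple K5Cre 7, without animal Q190 and without the 3 arrays low in Xist were added after seeing the data. On simulated data for quadruple against gland, 91 of 100 genes lower by 2 log2 units and 98 of 100 lower by 4 were called, and for the ventral tumours 77 and 96, with 18194 genes each. Of the members, 37 fell in quadruple (median difference -4.44, median SE 0.86), but only 6 in the ventral tumours (median difference -3.91, median SE 1.4). The simulated counts therefore do not give the share of members that would be called. Promoter windows are RefSeq sequences of GRCm38.p6. The fits used limma 3.58.1 in R 4.3.3, and tables and figures used pandas 2.3.3, matplotlib 3.10.9 and numpy 2.4.6 in Python 3.11.15.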

Additional observations from a re-analysis of the deposited data

Results flagged for a closer look

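In triple K5Cre, 1 array stood far from the other 7 in 14 of 21 sets of values examined (16 genes and 5 pair differences), and it was triple K5Cre 7 each time. In normal gland none of the same 21 sets had such an array. Chance sets a single sample apart in about 1 in 20 such groups, and these genes move together, so the 14 are not independent. Tnnc2 read 13.20 there, against 3.77 to 4.48 in the other arrays, Tnni2 12.28 (4.32 to 7.22), Tnnt3 11.92 (3.10 to 3.63), Myh4 11.38 (2.75 to 3.15) and Mybpc2 10.74 (3.67 to 6.45). Of the slow fibre genes, Myh7 read 5.57 (3.95 to 4.57) and Mybpc1 8.79 (3.84 to 5.66).

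Acta1 read 13.47 in triple K5Cre 7 (5.1 to 6.79 in the others), Ckm 12.54 (4.90 to 5.24), Des 9.93 (6.34 to 6.59) and Sln 5.86 (3.36 to 3.84). Within that array Tnnc2 minus Tnnc1 was 7.70 (-0.44 to 0.12 in the others), Tnnt3 minus Tnnt1 was 7.53 (-1.33 to -0.68) and Myh4 minus Myh7 was 5.80 (-1.60 to -1.06).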

How the results depend on the processing

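The median difference of the 41 genes from gland stayed between -4.83 and -3.97 in quadruple, -5.26 and -4.19 in triple K5Cre, -5.57 and -4.65 in triple Bcat, -5.69 and -4.57 in the masses and -4.52 and -3.02 in the ventral tumours. Counts depended more on the setting. Without genes of low mean (under 5.23), which kept 26 of the 41 genes, 24 fell in quadruple, 24 in triple K5Cre and 2 in the ventral tumours. The ventral tumour count, 6 as reported, was 15 with no block, 0 with animal means, 31 with array weights and 32 in a fit of both groups alone, 11 without Q190 and 0 without the 3 arrays low in Xist, and it ran from 0 to 10 over arrays left out. Over arrays left out, the count in the masses ran from 0 to 30 and that in triple Bcat from 14 to 35, a lone sample being assumed to vary like the other groups. With array weights 8 genes passed in quadruple against the ventral tumours. With the mean of all probe sets the mean level was 8.70 in gland, 4.31 in triple Bcat and 4.43 in the masses, and fast minus slow was -0.88 in triple Bcat and -0.98 in the masses.

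Of single genes, Tpm2 turned sign in triple Bcat (0.012 with no block, 0.12 with animal means, 0.054 with both groups alone, between -0.324 and 0.275 over arrays left out, above 0 without triple Bcat 3 or gland 3, and 0.25 without the 3 arrays low in Xist). With the mean of all probe sets Tpm2 turned to -1.12 in the masses and -0.91 in the ventral tumours, and over arrays left out it ran from -0.041 (without gland 1) to 0.554 in the latter. Tnni1 in triple K5Cre ran from -0.088 to 0.559 over arrays left out, below 0 without gland 2, 3 or 4. Apart from fewer genes or samples, the cause was not tested. Of all single gene values under alternatives, 1104 kept direction and side of the threshold, 84 no longer passed, 44 newly passed and 12 turned sign.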

Other observations

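Some genes of the muscle lists were high in arrays with little other muscle signal. Mb, myoglobin, read 10.91 in triple K5Cre 6, 9.57 in triple K5Cre 1, 9.22 in quadruple 3 and 9.14 in quadruple 16. Elf5, a luminal transcription factor, read 10.51, 11.37, 12.90 and 12.31 in these arrays, and Krt8, a luminal keratin, 14.25, 13.28, 13.20 and 13.80. Elf5 and Krt8 were chosen after their values were seen. In the glands Elf5 ran from 9.61 to 11.66 and Krt8 from 12.43 to 13.53. Their medians were 9.91 and 12.24 in quadruple and 9.95 and 12.35 in triple K5Cre. A link of Mb with luminal signal was not tested. Ldb3 was 8.33 in quadruple 16 and 7.39 in quadruple 3 but 3.80 in triple K5Cre 6. Casq2, the slow and cardiac calcium store, read 9.12 in quadruple 16 and 8.67 in triple K5Cre 1, against 5.85 to 6.34 in the glands.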
